A study of Homo sapiens with 12 samples.

Results

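The AP-1 family was followed through 12 RNA sequencing libraries labelled as A549, an established human lung adenocarcinoma line. Its members were taken by name: the rows of the count table that map to FOS, FOSB, FOSL1, FOSL2, JUN, JUNB, JUND, ATF3, BATF3 and JDP2. All 10 were found among the 61541 genes of the table, and all 10 were among the 16768 genes with enough counts to be tested. There were 4 groups of 3 libraries, and all were made from RNA taken 14 days post transduction. The monocultured control cells carried the non-targeting guide gNTC1 (genotype NTC KO), and the monocultured knockout cells (TS-KO, genotype TYMS KO) had been cut by Cas9 in TYMS, the gene of thymidylate synthase. The other two groups were the same kinds of cell taken from co-culture. No drug or other treatment was given to any group. The series text names parental A549 as the cells in whose presence the knockout cells regained proliferation. Which cells the control was grown with, any sorting before RNA was taken, and whether the knockout cells were a pool or a clone are not given in the sources used here. Nothing in the labels says that replicates came from separate cultures, so p-values measure only the spread between these libraries, which may be technical.

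AP-1 is a dimer of basic leucine zipper proteins. JUN, JUNB and JUND pair with each other or with the FOS proteins (FOS, FOSB, FOSL1, FOSL2), which cannot pair among themselves, and the dimers bind the palindrome TGANTCA or the related cyclic AMP response element TGACGTCA. FOS, FOSB, JUN, JUNB and ATF3 are immediate-early genes, switched on within minutes by growth factors, stress or cytokines through MAP kinases, whereas JUND is present in most resting cells. ATF3 is also a target of the ATF4 stress pathway, and BATF3 and JDP2 are small members without the activation domain of FOS, of which JDP2 is known mainly as a repressor.

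The targeted gene was measured first. TYMS stood at 90.3, 101 and 95.2 CPM (counts per 1e6 counts, TMM-scaled) in the monocultured control libraries and at 90.5, 94.2 and 95.7 CPM in the co-cultured control. Its level was 20.3, 21 and 21.4 CPM in the monocultured knockout and 11.4, 11 and 10.7 CPM in the co-cultured knockout. All knockout libraries lay below all control libraries, and co-culture lay below growth alone in the knockout (exact permutation test, two-sided, p = 0.1 for each, the smallest that 3 against 3 libraries allow). Library totals ran from 14921371 to 35723762 counts.

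The control libraries do not match their label in 1 respect. A549 is known for a homozygous deletion of CDKN2A, a cell cycle inhibitor gene, that extends into the neighbouring MTAP. CDKN2A was at 99.3 ± 22.9 CPM (SD, n = 3) in the monocultured control and 72.5 ± 15.5 CPM in the co-cultured control, and it had 0 counts in 5 of the 6 knockout libraries and 4 in the other. MTAP was at 59.5 ± 18.2 and 59.8 ± 5.74 CPM in the control groups and at 0.582 ± 0.0568 and 0.471 ± 0.163 CPM in the monocultured and co-cultured knockout. The epithelial surface gene EPCAM was at 104 ± 13.6 and 101 ± 7.30 CPM in the control groups and at 0.620 ± 0.264 and 0.322 ± 0.185 CPM in the knockout groups. In every comparison of knockout with control, the guide and the cell background of these libraries cannot be told apart. The comparison of co-cultured with monocultured knockout uses no control library in its difference, and it is given below also from a fit without them. TYMS, CDKN2A, MTAP and EPCAM, all high in the control libraries, had no higher mean in co-cultured than in monocultured knockout beyond the 4 counts of CDKN2A. CDKN2A and MTAP, deleted in A549, could show only cells like the control libraries, not parental A549, the partner named for the knockout. Carry-over of partner cells was not tested.

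Of 9 genes of immune, endothelial and fibroblast cells, 7 or 8 were under 1 CPM in all libraries of each group, PTPRC and CD3E included. The summed level of the 9 ran from 13.2 to 25.6 CPM over all libraries. COL1A1 made up most of it, at 18.1 and 12.6 CPM in the monocultured and co-cultured control and 22.5 and 14.4 CPM in the knockout. It was called lower in co-cultured than in monocultured knockout (log2 fold change -0.64, SE 0.18, adjusted p = 0.0419). CD68, a lysosomal gene of macrophages, was called higher in co-cultured than in monocultured knockout (2.99 ± 0.526 against 0.893 ± 0.0398 CPM, adjusted p = 0.00637), and its part in the results below was not tested. The lung lineage genes NKX2-1, SFTPB, SFTPC and SFTPD were under 1 CPM on average in every group, and NAPSA lay between 0.735 and 1.65 CPM. NKX2-1, at 0.651 CPM in the monocultured control, was called lower in the monocultured knockout (log2 fold change -3.55, adjusted p = 0.00086). The 6 epithelial genes summed to 9547 to 15661 CPM in the monocultured control, 9876 to 12781 in the co-cultured control, 5071 to 7065 in the monocultured knockout and 3968 to 6164 in the co-cultured knockout. Libraries of a group also differed along the GC content of transcripts: the Spearman correlation of a library's deviations from its group mean with GC, across 12055 genes, which are not independent replicates, had its extremes within the co-cultured knockout, at -0.838 for replicate 3 and 0.825 for replicate 2. The exons of JUND (69.7% GC) and JUNB (64.9%) are the richest in GC of the family and those of BATF3 (45.6%) and ATF3 (46.7%) the poorest, so values with offsets for GC are given beside the results they change. The offsets were fitted to deviations from the mean of all 12 libraries, so they also remove differences between groups that run along GC.

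The promoters below are those of FOS, FOSB and ATF3, which moved together in co-culture, and of JUN and JUND, which moved in opposite directions in the knockout. Each is the RefSeq window from 250 bases before to 50 bases after the transcription start (GRCh38.p14), read 5′ to 3′ on the gene's strand. Capitals mark matches, on either strand, to the cyclic AMP response element TGACGTCA, to its variant TGACATCA or to the shared core TGACGT. The windows are chr14:75278578-75278877 (plus strand) for FOS, chr19:45467746-45468045 (plus) for FOSB, chr1:58783998-58784297 (minus) for JUN, chr19:18281573-18281872 (minus) for JUND and chr1:212565157-212565456 (plus) for the upstream of 2 ATF3 windows.
FOS: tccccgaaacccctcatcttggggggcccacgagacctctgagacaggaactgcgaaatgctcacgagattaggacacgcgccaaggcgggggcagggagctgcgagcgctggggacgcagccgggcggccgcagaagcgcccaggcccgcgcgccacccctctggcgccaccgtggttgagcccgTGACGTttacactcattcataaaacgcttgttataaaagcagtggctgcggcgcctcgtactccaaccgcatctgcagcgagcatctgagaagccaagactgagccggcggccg
FOSB: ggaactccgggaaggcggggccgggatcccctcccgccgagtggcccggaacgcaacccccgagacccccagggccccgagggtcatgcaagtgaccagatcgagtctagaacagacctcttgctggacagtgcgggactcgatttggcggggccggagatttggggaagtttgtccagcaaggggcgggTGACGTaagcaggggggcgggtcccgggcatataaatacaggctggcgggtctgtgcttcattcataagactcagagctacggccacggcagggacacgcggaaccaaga
JUN: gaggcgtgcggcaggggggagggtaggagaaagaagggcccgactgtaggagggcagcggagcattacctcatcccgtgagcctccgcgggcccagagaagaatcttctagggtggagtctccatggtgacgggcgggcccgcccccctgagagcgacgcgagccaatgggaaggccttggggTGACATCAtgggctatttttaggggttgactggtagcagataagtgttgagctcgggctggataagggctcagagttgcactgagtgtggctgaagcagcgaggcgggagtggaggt
JUND: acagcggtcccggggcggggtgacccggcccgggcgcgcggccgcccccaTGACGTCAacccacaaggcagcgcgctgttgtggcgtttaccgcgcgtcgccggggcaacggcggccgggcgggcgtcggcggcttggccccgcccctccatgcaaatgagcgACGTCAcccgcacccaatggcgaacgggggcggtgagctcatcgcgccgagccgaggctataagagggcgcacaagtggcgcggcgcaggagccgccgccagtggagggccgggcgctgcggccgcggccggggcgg
ATF3: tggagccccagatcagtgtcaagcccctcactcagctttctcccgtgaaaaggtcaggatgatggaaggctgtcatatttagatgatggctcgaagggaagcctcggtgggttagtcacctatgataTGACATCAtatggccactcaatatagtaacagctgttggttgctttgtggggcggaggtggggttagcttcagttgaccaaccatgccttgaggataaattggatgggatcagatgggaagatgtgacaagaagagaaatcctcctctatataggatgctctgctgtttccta

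The FOS and FOSB windows each held 1 core TGACGT, 64 and 60 bases upstream of the start. JUN held TGACATCA 67 bases upstream, and the ATF3 window shown held the same letters 123 bases upstream. The other ATF3 window held none of the motifs searched, and which start these cells used was not measured. JUND held TGACGTCA 200 bases upstream, which contains the core on both strands, and a further core on the opposite strand 87 bases upstream. FOSL2 held TGACTCA, a form of TGANTCA, just after its start, and a core TGACGT 66 bases upstream. In 1 of 3 JDP2 windows the core lay 97 bases upstream, and the JUNB window held none of these motifs. Among all 35116 windows of this length, TGACGT was in 7.98%, TGANTCA in 7.71%, TGACATCA in 2.61% and TGACGTCA in 1.85%. The CArG box of serum response factor, in 1.29% of all windows, was in no window of a member, which says only that those letters are not in these 300 bases. FOSL1 and BATF3 were not matched to a window.

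The family was a different mixture in the knockout libraries. Levels of different genes were compared per kilobase of exon (CPM per kb, with the exon union of GENCODE 29), as shares of the sum over the 10 members. JUND made up 46.0%, 47.1% and 45.5% of the pool in the monocultured control and 39.2%, 42.8% and 43.0% in the co-cultured control. It made up 14.7%, 14.6% and 18.9% in the monocultured knockout, with 23.9%, 24.0% and 20.8% in the co-cultured knockout. JUN moved the other way, from 3.66% ± 0.384 (SD, n = 3) in the monocultured control and 4.70% ± 0.383 in the co-cultured control to 13.4% ± 1.91 and 14.8% ± 1.13 in the monocultured and co-cultured knockout. FOSL2 made up 3.71% ± 0.730, 4.80% ± 0.599, 15.2% ± 1.59 and 15.2% ± 1.81 of the pool in the same order of groups. JUNB held 31.2% ± 1.36, 30.4% ± 1.65 and 28.9% ± 2.05 in the first 3 groups and 21.2% ± 2.56 in the co-cultured knockout. These shares, and the ratios below, are a description with no test, and they carry the GC trend of each library and any difference of it between groups. For JUND, the edgeR log2 fold change in knockout against control alone was -2.02, and -0.65 with GC offsets.

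**Figure D1:**
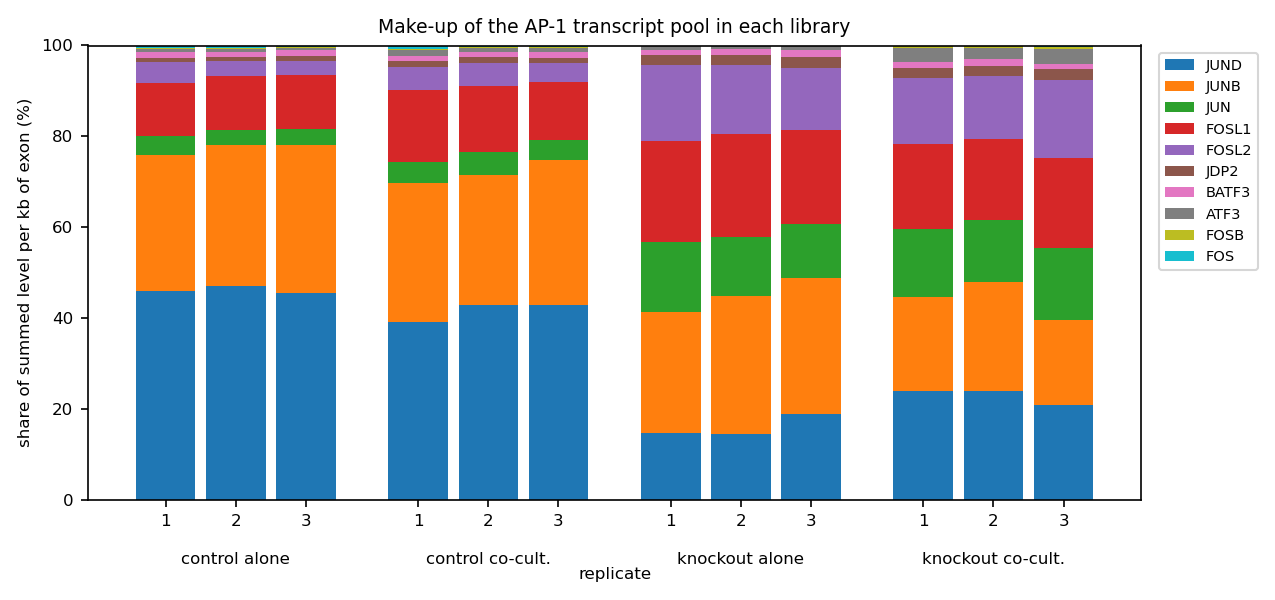
Share of each AP-1 member in the summed level per kilobase of exon (vertical axis, percent) in each of the 12 libraries (horizontal axis, replicates 1 to 3 of each group). JUND takes 39.2% to 47.1% of each control library and 14.6% to 24.0% of each knockout library, and FOSL2 and JUN take more of every knockout library than of any control library.

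The ratio of JUN to JUND per kilobase ran from 0.0712 to 0.0889 in the monocultured control, from 0.101 to 0.119 in the co-cultured control, from 0.621 to 1.05 in the monocultured knockout and from 0.564 to 0.757 in the co-cultured knockout. The summed FOS family stood at 0.200 ± 0.0123 of the summed JUN family in the monocultured control and 0.261 ± 0.0373 in the co-cultured control, against 0.639 ± 0.0633 in the monocultured knockout and 0.591 ± 0.0806 in the co-cultured knockout. Within the FOS family, FOS and FOSB together held 4.23% ± 0.749, 3.91% ± 0.839, 0.433% ± 0.0402 and 1.93% ± 0.191 in these groups. FOSL1 and FOSL2 thus supplied nearly the whole FOS family transcript in all 4 groups.

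In order of level per kilobase, both control groups ran JUND, JUNB, FOSL1, FOSL2, JUN, BATF3, JDP2, ATF3, FOS and FOSB. In each of these groups the libraries overlapped between JUND and JUNB, between FOSL2 and JUN and between BATF3 and JDP2. In the monocultured knockout the order was JUNB (93.9 ± 16.3 CPM per kb), FOSL1, JUND, FOSL2, JUN, JDP2, BATF3, ATF3, FOSB and FOS (0.222 ± 0.0469 CPM per kb), with overlap of JUND with FOSL1 and FOSL2 and of FOSB with FOS. In the co-cultured knockout JUND, JUNB and FOSL1 led, with overlap of each with the next, then FOSL2 and JUN, which overlapped, then ATF3, JDP2, BATF3, FOSB and FOS. ATF3 was eighth in the other groups and sixth there, at 11.9 ± 1.19 CPM per kb.

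Each comparison was fitted over all genes with edgeR, and called here means an adjusted p under 0.05. In knockout against control, both alone, 7 of the 10 members were called, 3 higher and 4 lower, where 56.6% of all genes were called, 28.0% higher and 28.6% lower. In knockout against control, both co-cultured, 8 were called, 6 higher and 2 lower, where 49.4% of all genes were called, 24.1% higher and 25.3% lower. Those 2 shares of the background are so large that the number of members called there is no result about the family. In co-cultured against monocultured knockout, 3 were called, all higher (FOS, FOSB and ATF3), where 11.4% of all genes were called, 5.97% higher and 5.40% lower. The median log2 fold change of the members was -0.33, 0.69 and 0.45 in these comparisons, beside 0.09, -0.02 and 0.01 over all genes tested. The comparisons share libraries, so their values are given side by side for each member.

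**Figure D2:**
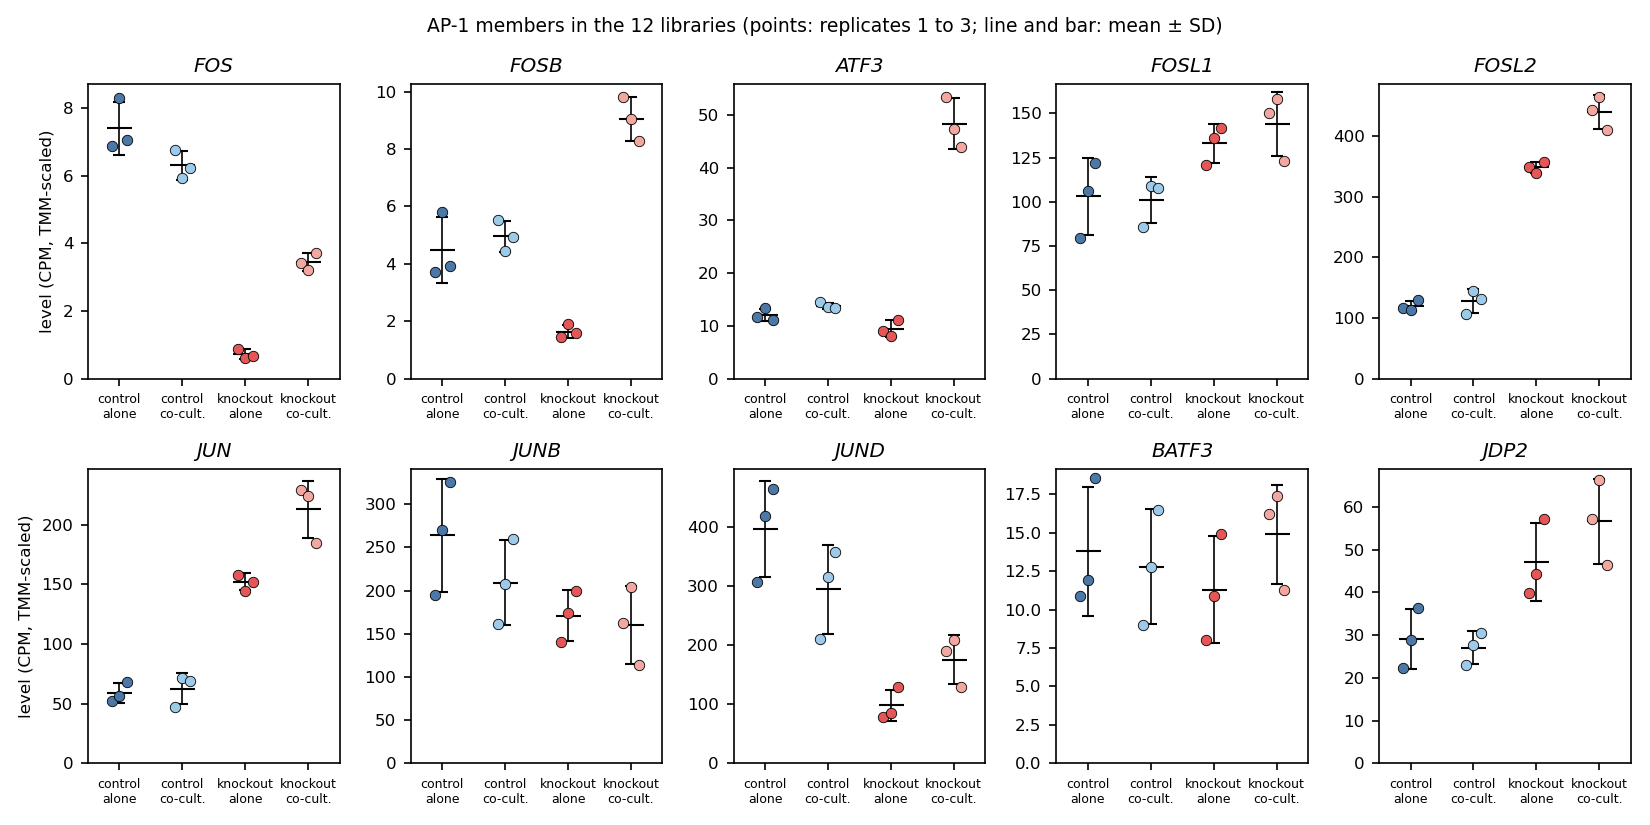
Level of each AP-1 member (vertical axis, TMM-scaled CPM, each panel on its own linear scale from 0) in the 4 groups (horizontal axis); points are the 3 libraries, and the line and bar are the mean and SD. FOS, FOSB and ATF3 have their lowest means in the monocultured knockout and are higher in all 3 co-cultured knockout libraries, at 3.22 to 3.73, 8.28 to 9.83 and 44.0 to 53.5 CPM.

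FOS (ENSG00000170345, chr14:75278774-75282230, plus strand), the founding partner of JUN, was lowest in the monocultured knockout. Its levels were 6.88, 8.32 and 7.05 CPM in the monocultured control and 6.77, 5.93 and 6.24 CPM in the co-cultured control. The monocultured knockout libraries were at 0.889, 0.597 and 0.669 CPM (21, 12 and 11 counts), and the co-cultured knockout libraries at 3.41, 3.22 and 3.73 CPM. Every monocultured knockout library lay below every other library, and the co-cultured knockout lay between it and the controls with no overlap. FOS was 10.2-fold lower in the monocultured knockout than in the monocultured control (log2 fold change -3.34, SE 0.24, adjusted p = 1.27e-07). It was 4.73-fold higher in co-cultured than in monocultured knockout (2.24, SE 0.23, adjusted p = 0.000107), and was lower there than in the co-cultured control (-0.87, SE 0.20, adjusted p = 0.00315). In bulk RNA, fewer cells with a transcript and less of it per cell cannot be told apart.

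FOSB (ENSG00000125740, chr19:45467995-45475179, plus strand), its close relative, fell and rose in the same comparisons but ended above the controls. It stood at 3.72, 5.79 and 3.93 CPM in the monocultured control, 5.52, 4.44 and 4.93 CPM in the co-cultured control, 1.44, 1.89 and 1.58 CPM in the monocultured knockout and 9.83, 9.04 and 8.28 CPM in the co-cultured knockout. The 3 co-cultured knockout libraries were the highest of all 12 and the 3 monocultured knockout libraries the lowest. The log2 fold change was -1.45 in knockout against control alone (SE 0.24, adjusted p = 0.000236) and -0.91 with GC offsets (adjusted p = 0.00306). It was 2.46 in co-cultured against monocultured knockout (SE 0.24, adjusted p = 6.87e-05) and 0.87 in knockout against control in co-culture (SE 0.22, adjusted p = 0.00552).

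ATF3 (ENSG00000162772, chr1:212565334-212620777, plus strand), the stress-induced member, was higher in co-cultured knockout libraries than in any others. Its levels were 11.7, 13.3 and 11.2 CPM in the monocultured control, 14.5, 13.5 and 13.4 CPM in the co-cultured control and 9.06, 8.02 and 11.2 CPM in the monocultured knockout. In the co-cultured knockout they were 53.5, 47.3 and 44.0 CPM. No library outside that group passed 14.5 CPM. ATF3 was 5.13-fold higher in co-cultured than in monocultured knockout (log2 fold change 2.36, SE 0.17, adjusted p = 5.7e-06) and 3.5-fold higher than in co-cultured control (1.81, SE 0.16, adjusted p = 1.23e-06). Between monocultured knockout and monocultured control its log2 fold change of -0.36 did not pass (SE 0.16, adjusted p = 0.0757). It did pass with GC offsets (-0.67, adjusted p = 0.0023) and without replicate 3 of the monocultured knockout (-0.52, adjusted p = 0.0235).

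A fit of the 6 knockout libraries alone gave the same 3 calls in co-culture, with log2 fold changes of 2.24 for FOS (adjusted p = 0.0059), 2.45 for FOSB (adjusted p = 0.00331) and 2.35 for ATF3 (adjusted p = 0.00202). In the control cells, none of the 10 members was called between co-culture and growth alone by edgeR or DESeq2, and none had an unadjusted p under 0.05. Over all genes edgeR and DESeq2 also called 0% there, with 540 genes at an unadjusted p under 0.05 by edgeR. The 95% intervals of the control difference ran from -0.67 to 0.20 for FOS, from -0.34 to 0.64 for FOSB and from -0.16 to 0.54 for ATF3, on the log2 scale.

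The difference between those co-culture responses was tested as an interaction. It sets knockout against control cells, so the guide, the cell background and the unstated partner of the control cannot be told apart in it. FOS, FOSB and ATF3 were called, each with a larger co-culture difference in knockout than in control cells, where 1.80% of all genes were called and 1.51% were called higher. The interaction was 2.48 for FOS (SE 0.31, adjusted p = 0.00149), 2.32 for FOSB (SE 0.33, adjusted p = 0.00336) and 2.17 for ATF3 (SE 0.23, adjusted p = 0.000491), on the log2 scale. For JUND it was 1.28 (SE 0.36, adjusted p = 0.105), and it passed with GC offsets (0.62, adjusted p = 0.00883), with DESeq2 (1.37, adjusted p = 0.0255) and without replicate 3 of the co-cultured knockout (1.46, adjusted p = 0.00879). The other 6 members lay between 0.14 and 0.53 and were not called. The count of all genes called is unsteady here: 301 passed in all, 1466 did with GC offsets and 3623 without replicate 3 of the co-cultured knockout.

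**Figure D3:**
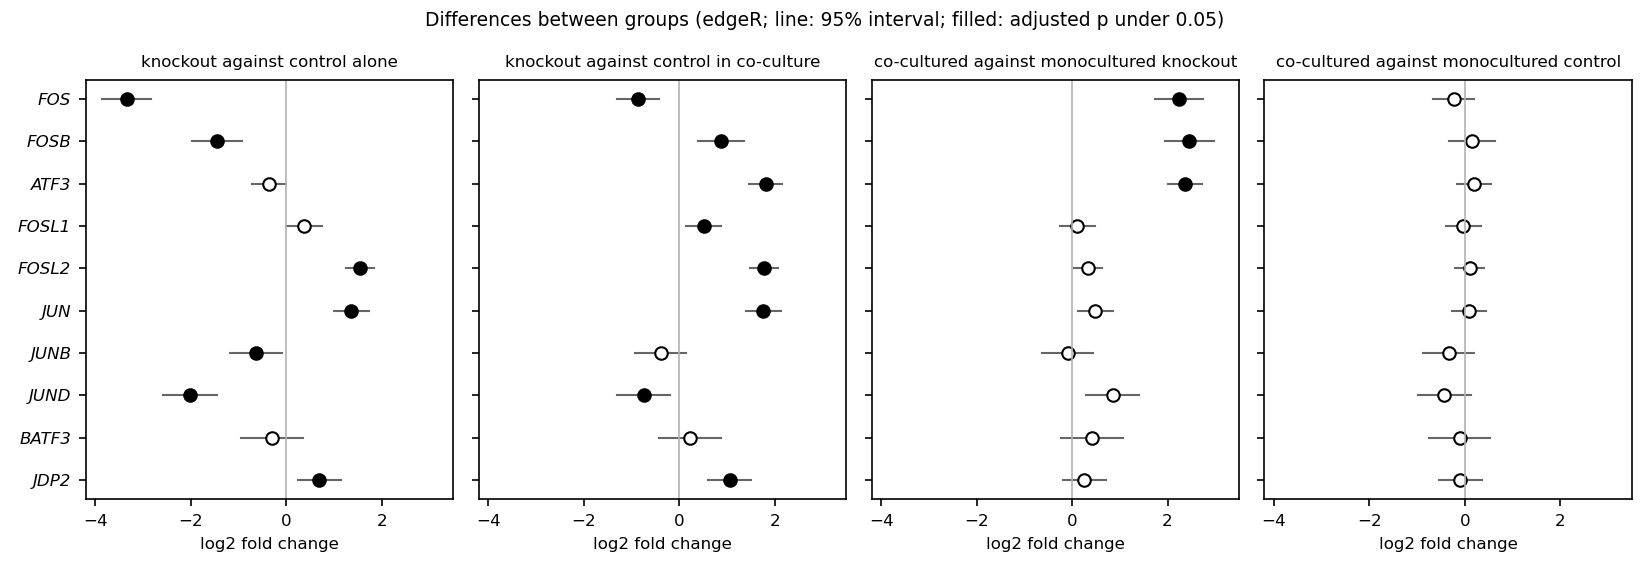
Log2 fold change (horizontal axis) of each AP-1 member (rows) in 4 comparisons (panels), with the 95% interval as a line and a filled point where the adjusted p was under 0.05. FOS, FOSB and ATF3 carry the only filled points in co-cultured against monocultured knockout, at 2.24 to 2.46, and no point is filled in the control cells.

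JUN (ENSG00000177606, chr1:58780788-58784327, minus strand), the main activating JUN protein, was higher in every knockout library than in any control library. It stood at 51.9, 56.7 and 68.5 CPM in the monocultured control and 47.4, 71.6 and 68.7 CPM in the co-cultured control. Its level was 158, 144 and 152 CPM in the monocultured knockout and 229, 224 and 185 CPM in the co-cultured knockout. The log2 fold change was 1.36 in knockout against control alone (SE 0.17, adjusted p = 2.52e-05; 1.82 with GC offsets) and 1.76 in co-culture (SE 0.17, adjusted p = 3.12e-06). Co-cultured knockout libraries lay above monocultured ones with no overlap, but the difference of 0.49 (SE 0.17) missed the threshold at an adjusted p of 0.0763. It passed with DESeq2 (0.56, adjusted p = 0.0385), with no filter on low counts (0.62, adjusted p = 0.0183), and without replicate 3 of the co-cultured knockout (0.58, adjusted p = 0.0207) or replicate 1 of the co-cultured control (0.49, adjusted p = 0.0498). With GC offsets it was smaller and did not pass (0.26, adjusted p = 0.119). In the fit of the knockout libraries alone it was 0.48 and did not pass either (adjusted p = 0.079).

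FOSL2 (ENSG00000075426, chr2:28392448-28417312, plus strand), a FOS protein without the strong activation domain of FOS, was likewise higher in the knockout. Its levels were 117, 113 and 129 CPM in the monocultured control, 107, 145 and 131 CPM in the co-cultured control, 349, 340 and 358 CPM in the monocultured knockout and 444, 465 and 410 CPM in the co-cultured knockout. The 4 groups separated into 2 levels, with the co-cultured knockout above the monocultured knockout in all libraries. FOSL2 was 2.92-fold higher in the monocultured knockout than in the monocultured control (log2 fold change 1.55, SE 0.14, adjusted p = 1.06e-06) and 3.44-fold higher in co-culture (1.78, SE 0.14, adjusted p = 3.44e-07). The co-culture difference in the knockout was 0.33 (SE 0.13, adjusted p = 0.12; 95% interval 0.04 to 0.62).

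JUND (ENSG00000130522, chr19:18279760-18281622, minus strand), the member typical of resting cells, was lower in the knockout, and its values spread widely within groups. It stood at 307, 419 and 465 CPM in the monocultured control, 211, 316 and 358 CPM in the co-cultured control, 79.3, 86.1 and 129 CPM in the monocultured knockout and 191, 209 and 129 CPM in the co-cultured knockout. All knockout libraries lay below all control libraries, while monocultured and co-cultured knockout met at 129 CPM. The log2 fold change was -2.02 in knockout against control alone (SE 0.26, adjusted p = 3.46e-05) and -0.65 with GC offsets (adjusted p = 1.7e-05). In co-culture it was -0.74 (SE 0.26, adjusted p = 0.0282), which with GC offsets became -0.03 (adjusted p = 0.802), and without replicate 3 of the co-cultured knockout -0.56 (adjusted p = 0.0737). That call was kept in 13 of 21 alternative settings. Among others, it was lost with RLE factors (adjusted p = 0.0577) and with only the groups compared (adjusted p = 0.0714). Leaving out replicate 2 (adjusted p = 0.0788) or 3 (adjusted p = 0.0903) of the co-cultured control also lost it.

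Between co-cultured and monocultured knockout, the JUND difference of 0.85 (SE 0.26, 95% interval 0.29 to 1.40) lay at the threshold, with an adjusted p of 0.0512. Without replicate 3 of the co-cultured knockout, which sits lowest along the GC trend, it was 1.03 (adjusted p = 0.00495). With GC offsets it was 0.65 (adjusted p = 0.000155), and with DESeq2 it was 0.92 (adjusted p = 0.0155). In the fit of the knockout libraries alone it was 0.84 and did not pass (adjusted p = 0.103). Leaving out either replicate 3 of the co-cultured knockout or replicate 1 of the co-cultured control brought the members called in this comparison from 3 to 5. JUN and JUND were the members added.

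JUNB (ENSG00000171223, chr19:12791496-12793315, plus strand), which can oppose JUN, gave no settled direction. It ran from 195 to 326 CPM in the monocultured control, 161 to 260 CPM in the co-cultured control, 140 to 199 CPM in the monocultured knockout and 114 to 204 CPM in the co-cultured knockout, and the groups overlapped in every comparison. It was called lower in knockout against control alone (log2 fold change -0.63, SE 0.25, adjusted p = 0.0469). With GC offsets the same comparison turned to a higher call (0.46, adjusted p = 0.000147). The call was lost without replicate 2 (adjusted p = 0.1) or 3 (adjusted p = 0.159) of the monocultured control, replicate 1 (adjusted p = 0.159) or 2 (adjusted p = 0.0936) of the monocultured knockout, replicate 2 of the co-cultured control (adjusted p = 0.0615) or replicate 1 of the co-cultured knockout (adjusted p = 0.0525), with log2 fold changes of -0.65 to -0.47. Between co-cultured and monocultured knockout its difference was -0.09 (adjusted p = 0.825), and with GC offsets it was called lower (-0.34, adjusted p = 0.00603). Its exons share 259 bases with HOOK2 on the opposite strand.

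JDP2 (ENSG00000140044, chr14:75427716-75474111, plus strand), the repressive member, was moderately higher in the knockout. It stood at 22.2, 28.8 and 36.3 CPM in the monocultured control, 23.1, 27.7 and 30.6 CPM in the co-cultured control, 39.8, 44.4 and 57.3 CPM in the monocultured knockout and 57.2, 66.3 and 46.3 CPM in the co-cultured knockout. No knockout library fell below a control library. The log2 fold change was 0.69 in knockout against control alone (SE 0.21, adjusted p = 0.0124) and 1.06 in co-culture (SE 0.21, adjusted p = 0.000961). The difference alone lost its call without replicate 1 of the monocultured control (0.53, adjusted p = 0.0506) or replicate 3 of the monocultured knockout (0.51, adjusted p = 0.0676). A short stretch of 26 exonic bases is shared with AF111167.2 on the other strand, and the strand setting of the counting is not given in the sources used here.

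FOSL1 (ENSG00000175592, chr11:65892049-65900573, minus strand), a FOS protein prominent in invasive epithelial tumours, differed little between groups in the main fit, and more between knockout and control with GC offsets. Its levels ran from 79.6 to 122 CPM in the monocultured control, 85.7 to 109 CPM in the co-cultured control, 121 to 142 CPM in the monocultured knockout and 123 to 158 CPM in the co-cultured knockout. It was called in the main fit only in knockout against control in co-culture (log2 fold change 0.51, SE 0.17, adjusted p = 0.0236). That call was lost without replicate 1 of the co-cultured control (0.41, adjusted p = 0.104) or replicates 1 (0.46, adjusted p = 0.0835) or 2 (0.41, adjusted p = 0.0856) of the co-cultured knockout. With GC offsets the call was kept and the difference was 0.85 (adjusted p = 5.8e-07). Alone, 0.37 did not pass (SE 0.17, adjusted p = 0.0812), whereas with GC offsets the difference was 1.11 (adjusted p = 3.3e-08). It was 0.55 with library size only (adjusted p = 0.000736) and 0.49 without replicate 3 of the monocultured control (adjusted p = 0.0391).

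BATF3 (ENSG00000123685, chr1:212686418-212699985, minus strand), best known from dendritic cells, overlapped between all groups, at 8 to 18.6 CPM over the 12 libraries. It was not called in any comparison. Its difference was 0.41 in co-cultured against monocultured knockout, with a 95% interval of -0.23 to 1.06, and 0.68 with GC offsets (adjusted p = 0.203). In knockout against control alone it was -0.30, and -0.71 with GC offsets (adjusted p = 0.133).

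The listed target genes of AP-1 held secreted factors, proteases and matrix genes. Of 28 listed, 25 were tested. In co-cultured against monocultured knockout 12 of them were called higher and 2 lower, with a median log2 fold change of 0.72 beside 0.01 over all genes. In knockout against control alone 13 were called higher and 5 lower, with a median of 0.70 beside 0.09. For this list and those that follow, the shares of all genes called were 5.97% higher and 5.40% lower in the former comparison, and 28.0% higher and 28.6% lower in the latter. None was called in co-cultured against monocultured control, where 5 had an unadjusted p under 0.05.

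The targets with the smallest p in co-culture encode secreted signals. CXCL8, a neutrophil chemokine, was at 54.9 ± 18.7 CPM in the monocultured control, 69.9 ± 3.43 in the co-cultured control, 52.3 ± 0.890 in the monocultured knockout and 818 ± 113 in the knockout from co-culture (log2 fold change there 3.97, SE 0.23, adjusted p = 9.07e-07). CSF2, the granulocyte and macrophage growth factor, had 3, 5 and 1 counts in the monocultured knockout and 147, 256 and 214 counts in the co-cultured knockout (5.57, SE 0.42, adjusted p = 1.33e-05). CCL2, a monocyte chemokine, rose from 61.8 ± 0.983 to 242 ± 26.6 CPM (1.97, SE 0.16, adjusted p = 1.63e-05). In knockout against control alone, CCL2 was already higher (1.34, SE 0.16, adjusted p = 1.19e-05), while CSF2 was lower (-1.38, SE 0.54, adjusted p = 0.0436) on counts of 1 to 11. The matrix genes CCN1 (3.05, SE 0.13, adjusted p = 1.64e-09) and CCN2 (3.42, SE 0.15, adjusted p = 2.01e-09) were also higher there, and CCN2 then fell in co-culture (-0.55, SE 0.13, adjusted p = 0.0212).

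**Figure D4:**
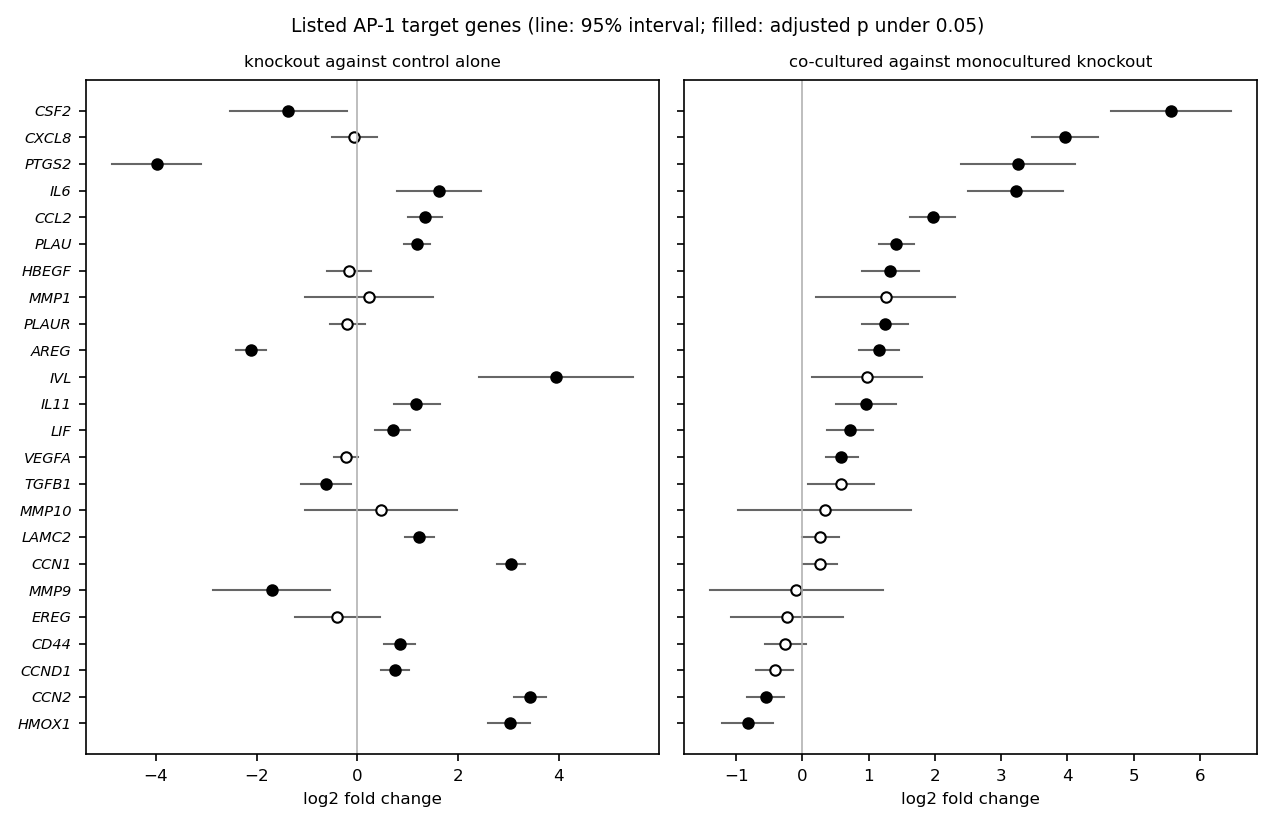
Log2 fold change (horizontal axis) of the listed AP-1 target genes shown (rows, ordered by the right panel; 1 tested gene is not shown), in knockout against control alone (left) and in co-cultured against monocultured knockout (right); lines are 95% intervals and filled points had an adjusted p under 0.05. CSF2, at 5.57, and CXCL8, at 3.97, head the right panel, and CCN1, at 3.05, and CCN2, at 3.42, have filled points in the left panel.

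The wider set of immediate-early genes, which respond to the same signals as FOS, was called lower for 8 and higher for 3 of 14 in knockout against control alone. In co-cultured against monocultured knockout 8 were called higher and none lower, with a median log2 fold change of 0.77. EGR1, a zinc finger factor, stood at 63.4 ± 6.62 and 53.9 ± 8.38 CPM in the control groups, 0.856 ± 0.215 CPM in the monocultured knockout and 20.9 ± 3.22 CPM in the co-cultured knockout (co-culture log2 fold change 4.62, SE 0.22, adjusted p = 2.14e-07). NR4A1, an orphan nuclear receptor, was lower alone (-2.97, SE 0.20, adjusted p = 1.04e-07) and rose in co-culture (1.76, SE 0.20, adjusted p = 0.000193). The phosphatase gene DUSP1, which switches off MAP kinases, was higher alone (2.31, SE 0.18, adjusted p = 3.2e-07), and BTG2, an antiproliferative gene, was higher both alone (1.11, SE 0.15, adjusted p = 3.78e-05) and in co-culture (1.18, SE 0.15, adjusted p = 0.000354).

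Among 8 genes of the integrated stress response, which ATF3 belongs to through ATF4, 5 were called higher and none lower in co-cultured against monocultured knockout. DDIT3, the stress factor CHOP, stood at 3.23 ± 0.342 CPM in the monocultured control, 4.46 ± 0.961 in the co-cultured control, 6.93 ± 1.38 in the monocultured knockout and 64.6 ± 4.91 in the co-cultured knockout (co-culture log2 fold change 3.22, SE 0.20, adjusted p = 2.42e-06). Its exons share bases with MARS on the other strand. PPP1R15A, which restores translation after stress (1.67, SE 0.16, adjusted p = 6.49e-05), and SESN2 (1.25, SE 0.18, adjusted p = 0.00124) rose with it. In knockout against control alone this list was called higher for 2 genes and lower for 4, CHAC1 (-1.03, SE 0.22, adjusted p = 0.00128) and TRIB3 (-0.98, SE 0.21, adjusted p = 0.00181) among the latter. Of 7 heat shock genes, which handling of cells can raise, 2 were called higher in co-culture, the near-identical pair HSPA1A and HSPA1B, whose reads may be split between them. HSPA1A differed by 0.99 (SE 0.16, adjusted p = 0.00274) and HSPA1B by 0.86 (SE 0.14, adjusted p = 0.00242). Both were also called in the interaction (1.07, adjusted p = 0.035, and 1.03, adjusted p = 0.0183). The summed level of all 7 ran from 3611 to 3933 CPM in the monocultured and from 3210 to 3453 CPM in the co-cultured knockout. HSPA8, at 1680 and 1592 CPM, was the largest part of that sum, which therefore says little about the pair. Whether handling differed between groups was not tested.

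Other leucine zipper genes that can join AP-1 dimers were called for 9 of 11 tested in knockout against control alone, 5 higher and 4 lower. In co-cultured against monocultured knockout 3 were called, all higher. MAFF, a small MAF protein, stood at 33.7 ± 9.12 and 33.1 ± 6.03 CPM in the control groups, 14.5 ± 2.42 CPM in the monocultured knockout and 65.4 ± 12.4 CPM in the co-cultured knockout (co-culture log2 fold change 2.17, SE 0.23, adjusted p = 0.000127). BATF2 (2.37, SE 0.27, adjusted p = 0.000243) and MAFA (2.19, SE 0.29, adjusted p = 0.00053) rose with it, each from under 1 CPM. MAF was at 14.3 ± 1.17 CPM in the monocultured knockout and 8.98 ± 2.87 CPM in the co-cultured knockout, against 0 to 4 counts in each control library.

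MAP kinases and the serum response regulators lie on the route to FOS and JUN transcription. Of 20 tested, 7 were called higher and 6 lower in knockout against control alone. RPS6KA2 was lower (-3.59, SE 0.33, adjusted p = 1.73e-06), as were MAP2K7, the activator of JUN kinases (-1.79, SE 0.18, adjusted p = 3.63e-06), and MAPK3, which encodes ERK1 (-1.59, SE 0.22, adjusted p = 6.26e-05). In co-cultured against monocultured knockout 2 were called higher, MAP2K1 (0.71, SE 0.12, adjusted p = 0.00252) and MAP2K3 (0.71, SE 0.19, adjusted p = 0.0304), and 2 lower, MRTFB among them (-1.58, SE 0.39, adjusted p = 0.0251). Transcript levels carry no measure of kinase activity. Exons of CCN2, NR4A1, MAP2K1 and MAP2K7 share bases with genes on the other strand, and those of RPS6KA2, MRTFB, HSPA1B and CD68 with genes on the same strand, so their counts are uncertain to that extent.

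The genes whose log2 CPM ran most like that of FOS over the 12 libraries were EGR1 (Pearson r = 0.988) and BCL6 (r = 0.980). For FOSB they were OAS3 (r = 0.979) and PJA1 (r = 0.964), and for ATF3 they were CXCL1 (r = 0.974) and COL17A1 (r = 0.967). These 3 members had the widest ranges of mean log2 CPM over the groups, at 3.22 for FOS, 2.41 for FOSB and 2.35 for ATF3. The points are libraries of 4 groups and are not independent of one another, so the correlations describe the order of the groups and carry no p.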

How the data were processed

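RNA was sequenced from 12 libraries in 4 groups of 3. The authors deposited raw counts, whole numbers per Ensembl gene. STAR 2.7.9a, featureCounts, R 4.2.1, DESeq2 1.36.0 and GRCh38 are named in the submitters' processing notes, and the annotation release and strand setting are not given in the sources used here. Of 61541 gene identifiers, 58366 were found in GENCODE 29, the source of positions, exon lengths and GC content. From the counts, edgeR 4.0.16 (R 4.3.3) was run with filterByExpr (16768 genes), TMM factors, 4 group means and the robust quasi-likelihood F-test over 5 comparisons, with Benjamini-Hochberg adjustment over all genes and calls at an adjusted p under 0.05. The biological coefficient of variation was 22.1%. Replicates of a group differed by a chi-square of 8.77 to 130 per gene, far above sampling noise, so none was another library sequenced again. The chi-square cannot tell separate cultures from separate preparations of the same RNA. Members and lists were chosen with earlier results of these data known. All members were named, with up to 3 called genes of smallest p per list and comparison, and 2 genes most like each of the 3 most variable members, not all of which are described. Alternatives were DESeq2 1.42.0, RLE factors, library size only, no filter, only the groups compared, a replicate block, GC offsets (spline with 5 degrees of freedom per library), a 1.5-fold threshold and leaving out each library. The test was checked on simulated counts without a GC trend, so that check does not cover the trend of these libraries. A gene named by this rule is not reported here.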

Additional observations from a re-analysis of the deposited data

Results flagged for a closer look

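The co-culture difference was tested to differ between knockout and control cells for 3 members, each by the interaction term of edgeR over all 12 libraries. For FOS the difference in knockout cells exceeded that in control cells by 2.48 on the log2 scale (adjusted p = 0.00149). The corresponding excess was 2.32 for FOSB (adjusted p = 0.00336) and 2.17 for ATF3 (adjusted p = 0.000491). All 3 co-cultured knockout libraries were above all 3 monocultured knockout libraries for each of these genes. They were already called in that comparison, so this is no separate support. There, 5 of the 10 members had groups without overlap, and the share over all genes was not counted. Between co-cultured and monocultured control, 2 members (FOS and ATF3) had no overlap, and neither was called. In the interaction, the guide, the cell background and the unstated partner of the control cells cannot be told apart. With groups of 3 libraries, single outlying libraries were not tested for.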

How the results depend on the processing

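Of 21 called differences of members, 15 stayed called under all alternatives run for them, and over 438 settings 410 kept their call, 26 lost it and 2 turned, both JUNB. The members called in co-cultured against monocultured knockout were 5 rather than 3 with no filter, with GC offsets (alone or with the block, where JUND was added as higher and JUNB as lower) and with DESeq2, and 3 to 5 when each library was left out. Those in co-cultured knockout against control were 4 rather than 8 with the 1.5-fold threshold. Over all genes, co-cultured against monocultured knockout gave 1907 calls, but 664 with only the groups compared, 3340 with no filter, 4911 with GC offsets, 4180 with the block and GC offsets, 3239 with DESeq2 and 293 with the 1.5-fold threshold. The interaction gave 301, but 1342, 1466, 881, 872 and 92 with no filter, GC offsets, block with GC offsets, DESeq2 and the 1.5-fold threshold. Knockout against control alone gave 9485, and 5971 with the 1.5-fold threshold, and in co-culture 8276 and 4954. Leaving out single libraries moved the co-cultured against monocultured knockout count between 536 (without replicate 1 of the co-cultured knockout) and 5680 (without its replicate 3), and the interaction count between 119 and 3623.

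Replicate numbers gave no pairing common to all 4 groups. Deviations of same-numbered libraries correlated from -0.603 to 0.491 (median -0.0378, 7 of 18 pairs over 0.1). Outside the co-cultured knockout, the correlations were 0.189 to 0.491 for replicate 1 and 0.308 to 0.412 for replicate 3. For replicate 2 they were -0.0735 to -0.0242. Replicate 3 of the co-cultured knockout correlated at -0.603 to -0.523 with replicate 3 of other groups, and at 0.357 to 0.639 with replicate 1. A block by number cannot take up an order that differs in 1 group. With a replicate block 7, 3, 8, 0 and 3 members were called in the 5 comparisons, as without it, and 9067, 1080, 7781, 0 and 179 of all genes.

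GC offsets turned JUNB to 0.46 in knockout against control alone (0.47 with the block) and to 0.15 in co-culture (0.15 with the block), and its interaction to -0.31 (-0.31). They turned FOSL1 to -0.13 (-0.13) in co-cultured against monocultured knockout, to 0.14 (0.14) in co-cultured against monocultured control and to -0.26 (-0.26) in the interaction, and JUND to 0.03 (0.03) in co-cultured against monocultured control. No filter turned JUNB to 0.05 in co-cultured against monocultured knockout, and library size only turned FOSL1 to 0.05 and TYMS to 0.03 in co-cultured against monocultured control. Apart from JUNB against control alone, none of these turned values was called. Leaving out single libraries, co-cultured against monocultured control ranged from -0.18 to 0.11 for FOSL1, -0.01 to 0.21 for FOSL2, -0.02 to 0.25 for JUN, -0.34 to 0.16 for BATF3, -0.26 to 0.09 for JDP2 and -0.07 to 0.01 for TYMS. The FOSL1 interaction then ranged from -0.01 to 0.30, and JUNB in co-cultured against monocultured knockout from -0.32 to 0.10. With library size only, the median of all genes moved from 0.09 to 0.24 in knockout against control alone and from 0.01 to -0.11 in the interaction, and mean TYMS in the monocultured knockout was 22.0 CPM.

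As shares of summed CPM, not per kilobase, JUN was 5.90%, 7.27%, 15.7% and 16.9% and JUND 39.3%, 34.0%, 9.98% and 13.8% of the pool in monocultured control, co-cultured control, monocultured knockout and co-cultured knockout. The cause of these changes was not tested. Depth limits FOS most, with 11 to 21 counts in each monocultured knockout library.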

Other observations

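Further epithelial genes outside the family differed between knockout and control libraries grown alone. CLDN4, a tight junction gene, was at 343 ± 87.5 CPM in the monocultured control and 12.4 ± 1.57 CPM in the monocultured knockout (edgeR log2 fold change -4.80, SE 0.24, adjusted p = 6.23e-09). KRT19, a keratin of simple epithelia, was lower by the same comparison (-2.77, SE 0.26, adjusted p = 1.94e-06). In co-cultured against monocultured knockout, KRT19 differed by 0.81 (adjusted p = 0.0521) and CLDN4 by -0.65 (adjusted p = 0.0666), neither of which passed.

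CREB5, a leucine zipper partner of JUN, was higher in knockout than in control cells alone (3.05, SE 0.36, adjusted p = 1.3e-05), and between monocultured and co-cultured knockout its difference was 0.03 (SE 0.28, adjusted p = 1). CXCL1, the gene most like ATF3 over the libraries, was at 141 ± 9.55, 168 ± 30.4, 69.8 ± 9.40 and 1119 ± 95.3 CPM in monocultured control, co-cultured control, monocultured knockout and co-cultured knockout.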
